A study of Mus musculus with 208 samples.

Results

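The genes described here are 10 markers of GABAergic neurons and interneurons, taken as the rows with the symbols Gad1, Gad2, Slc32a1, Pvalb, Calb2, Sst, Vip, Cck, Lamp5 and Reln out of 46403 genes in each deposited table. All 10 had counts in all 4 regions sampled, namely the hypothalamus, the hippocampus, the prefrontal cortex (PFC) and the striatum, and all 10 passed the filter on low counts in every region. The libraries came from about 5000 sorted NeuN+ nuclei each (NeuN marks neuronal nuclei) of adult wild type C57BL/6NTac mice of both sexes, which were raised by drug-naive foster mothers. Minipumps gave the dams saline or morphine (10 mg/kg daily), and the pups then received 10 mg/kg morphine or saline at each of a morning and an afternoon injection a day from postnatal day 1 to the morning of day 14. In adulthood the offspring received lipopolysaccharide (LPS, a bacterial wall component that sets off inflammation) at 2 mg/kg or saline, 2 h before collection. The groups are therefore SAL-SAL (saline, then saline), MOR-SAL (perinatal morphine, adult saline), SAL-LPS (perinatal saline, adult LPS) and MOR-LPS (both agents). In that order they hold 11, 14, 12 and 14 libraries in the hypothalamus, 13, 12, 14 and 16 in the hippocampus, 10, 12, 10 and 16 in the PFC, and 13, 8, 15 and 18 in the striatum. The 208 libraries carry 71 replicate labels, each taken here as 1 animal, and 69 of these labels occur in more than 1 region. The first number of the label takes 18 values, called number groups here, and what it marks is not given by the labels. Each number group had a single perinatal exposure, 17 held both adult challenges, and 1 held both sexes.

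GABA is the main inhibitory transmitter of the forebrain. It is made from glutamate by the enzymes GAD67 (Gad1) and GAD65 (Gad2) and loaded into synaptic vesicles by the transporter VGAT (Slc32a1). In cortex and hippocampus, interneurons are a minority among excitatory neurons and are sorted into classes by calcium-binding proteins such as parvalbumin (Pvalb) and calretinin (Calb2), by neuropeptides such as somatostatin (Sst), vasoactive intestinal peptide (Vip) and cholecystokinin (Cck), and by Lamp5 and reelin (Reln). In the striatum most projection neurons are themselves GABAergic, and in the hypothalamus many of these peptides are made by neurons that are not interneurons. In bulk nuclei, fewer cells of a type and less RNA per cell cannot be told apart.

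Total counts per library were lowest in the hypothalamus, at 7673 to 35077048, and reached 92945090 in the striatum, where none was under 5954700. Hippocampal libraries held 227025 to 24071488 counts and PFC libraries 3056648 to 21988203. Levels are given as normalized CPM, which are CPM after scaling of the library totals by TMM over all 208 libraries. Some libraries carried markers of another region. In 11 of 51 hypothalamic libraries Slc17a7, the vesicular glutamate transporter of cortical excitatory neurons, was above 50 or Prkcd, a marker of thalamic neurons, above 500 normalized CPM. These 11 libraries had a median Slc17a7 of 103 against 3.91 in the other 40, and the hypothalamic genes Hcrt (orexin) and Sim1 both had a median of 0 in them against 8.22 and 15.9. Hcrt and Sim1 belong to a list of 7 hypothalamic neuron markers, of which the others were not compared in this way. They comprised 6 of 14 MOR-LPS, 2 of 12 SAL-LPS, 3 of 11 SAL-SAL and 0 of 14 MOR-SAL libraries, and the marker that was high differed between these groups. The 3 SAL-SAL libraries had Prkcd of 539 to 1469 and Slc17a7 of 17.8 to 66.5 normalized CPM. Slc17a7 was 88.7 to 222 in the 6 MOR-LPS and 68.0 to 124 in the 2 SAL-LPS libraries, with Prkcd of 11.7 to 217 and of 23.1 to 36.3. In the PFC, 9 of 48 libraries had Slc17a7 below 10, and in the striatum 6 of 54 had Drd1, the dopamine receptor of striatal projection neurons, below 10. These libraries are called libraries that stand apart. No such limit was set for the hippocampus, and markers of other regions were not confined to the libraries that stand apart. The summed level of 6 markers of striatal projection neurons was at least 220 normalized CPM in every PFC library and reached 1735 in the hippocampus. That of 5 thalamic markers was at least 488 in every striatal library. Where a call of the 10 genes changed without them, both values are given.

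The hypothalamic counts also differed from the other tables in a way that touches every comparison of regions. Among genes whose median reached 5 normalized CPM in some region and which have a single annotated position, the 3004 with a gene span over 12.1 times their exon length had a median log2 ratio, hypothalamus over another region, of -1.16 to -1.36. The 2437 genes with a span under 2.85 times their exon length had medians of 0.60 to 0.90. Between the other 3 regions the same medians stayed between -0.28 and 0.27. Of the genes with a single annotated position, a further 1009 with a median at or above 5 in the hypothalamus had no count in any library outside the hypothalamus, and 99.8% of them overlap the span of another gene, against 56.5% of the other 11402 genes. Region and way of counting cannot be told apart in comparisons with the hypothalamus. Among the 10 genes, the span was 12.2 to 19.4 times the exon length for Gad2, Pvalb, Calb2 and Reln, 4.50 to 6.41 times for Gad1, Lamp5 and Cck, and 1.78 to 2.47 times for Slc32a1, Sst and Vip. Exons of Slc32a1 overlap the gene Gm14205 on the opposite strand over 697 bp, and those of Reln overlap Gm10475 over 246 bp. The strand used in counting is not given in the sources used here, so these values are uncertain.

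The peptide genes Vip and Cck are 2 of the 4 genes called in the hypothalamus of morphine-exposed mice after LPS. Their promoters are shown as the 250 bases before the RefSeq start, 5' to 3' on the strand of the gene (build GRCm38.p6, which is mm10). Capitals mark TGACG, or its reverse complement CGTCA, the core of the cAMP response element through which neuronal activity can act on such genes. The Vip window is chr10:5638968-5639217 on the plus strand and the Cck window is chr9:121495695-121495944 on the minus strand.
Vip promoter: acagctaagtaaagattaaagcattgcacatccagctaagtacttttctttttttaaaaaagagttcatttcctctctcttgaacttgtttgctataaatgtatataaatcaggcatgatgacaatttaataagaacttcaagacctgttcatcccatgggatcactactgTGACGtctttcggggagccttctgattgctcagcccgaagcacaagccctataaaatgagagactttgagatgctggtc
Cck promoter: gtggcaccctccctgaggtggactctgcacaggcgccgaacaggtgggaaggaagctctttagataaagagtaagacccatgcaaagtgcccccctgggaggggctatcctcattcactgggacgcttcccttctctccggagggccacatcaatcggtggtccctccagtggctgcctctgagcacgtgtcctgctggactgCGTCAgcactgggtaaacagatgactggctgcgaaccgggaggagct
The core lies 79 bases before the start of Vip and 47 bases before that of Cck. Searched on both strands, it was found in 17.8% of 32851 RefSeq promoters of the same length, and among the 9 of the 10 genes with a RefSeq promoter (all but Calb2) also in Gad2 and Sst. The full palindrome TGACGTCA, which contains the core, was found in 1.55% of all promoters and among those 9 in Sst alone. A match is a description of these letters and not evidence of binding.

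The enzymes of GABA synthesis were highest in the striatum and lowest in the hippocampus. Gad1 (chr2:70553072-70602014, plus strand, mm10) had a median of 200.3 normalized CPM in the striatum (lowest 55.9, highest 505), 142 in the PFC (63.1 to 375), 124 in the hypothalamus (0 to 374) and 81.6 in the hippocampus (25.6 to 227). Gad2 (chr2:22622205-22693874, plus strand) had a median of 253 in the striatum (67.0 to 511), 170.4 in the PFC (47.1 to 552), 152 in the hypothalamus (20.4 to 340.0) and 68.2 in the hippocampus (0 to 261). The regions overlapped for both genes, but the hippocampus was lower than the PFC by a log2 fold change (log2FC) of -1.05 ± 0.13 for Gad1 and -1.39 ± 0.15 for Gad2 (SE), and lower than the striatum by -1.32 ± 0.12 and -1.74 ± 0.15. Those 4 differences were called, here and below meaning an adjusted p under 0.05 in edgeR's quasi-likelihood test over all genes tested. PFC and striatum did not pass for Gad1 (log2FC -0.27 ± 0.13, edgeR adjusted p = 0.102) or Gad2 (-0.36 ± 0.15, adjusted p = 0.0649) with all libraries. Both were called without the libraries that stand apart, with a log2FC of -0.45 for Gad1 (adjusted p = 0.00318) and -0.71 for Gad2 (adjusted p = 4.47e-05), and with medians of 132 in the PFC and 217 in the striatum for Gad1 and of 148 and 261 for Gad2. Markers of medium spiny neurons, the GABAergic projection neurons of the striatum, moved with these differences. Their summed level over 6 genes had a median of 1164 normalized CPM in the PFC (220 to 2827), 1185 in the striatum (43.5 to 3618), 64.0 in the hippocampus (3.93 to 1735) and 106 in the hypothalamus (0 to 838). All 6 were lower in the hippocampus than in the PFC (median log2FC -3.31) and than in the striatum (-3.39), and 0 of 6 were called between PFC and striatum by edgeR. Their part in the differences of the GABA genes was not tested.

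Slc32a1 (chr2:158610767-158615748, plus strand) was also lowest in the hippocampus. Its median was 15.3 normalized CPM in the PFC (1.64 to 61.1), 14.7 in the striatum (1.54 to 59.0), 9.34 in the hypothalamus (0 to 40.2) and 2.52 in the hippocampus (0 to 12.2). The hippocampus was lower than the PFC by a log2FC of -2.62 ± 0.23 and lower than the striatum by -2.23 ± 0.23, both called in edgeR. PFC and striatum, the neighbours at the top of the order, did not pass (0.39 ± 0.23, adjusted p = 0.214). Their order turned without the libraries that stand apart, with medians of 13.6 in the PFC and 15.3 in the striatum.

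**Figure D1:**
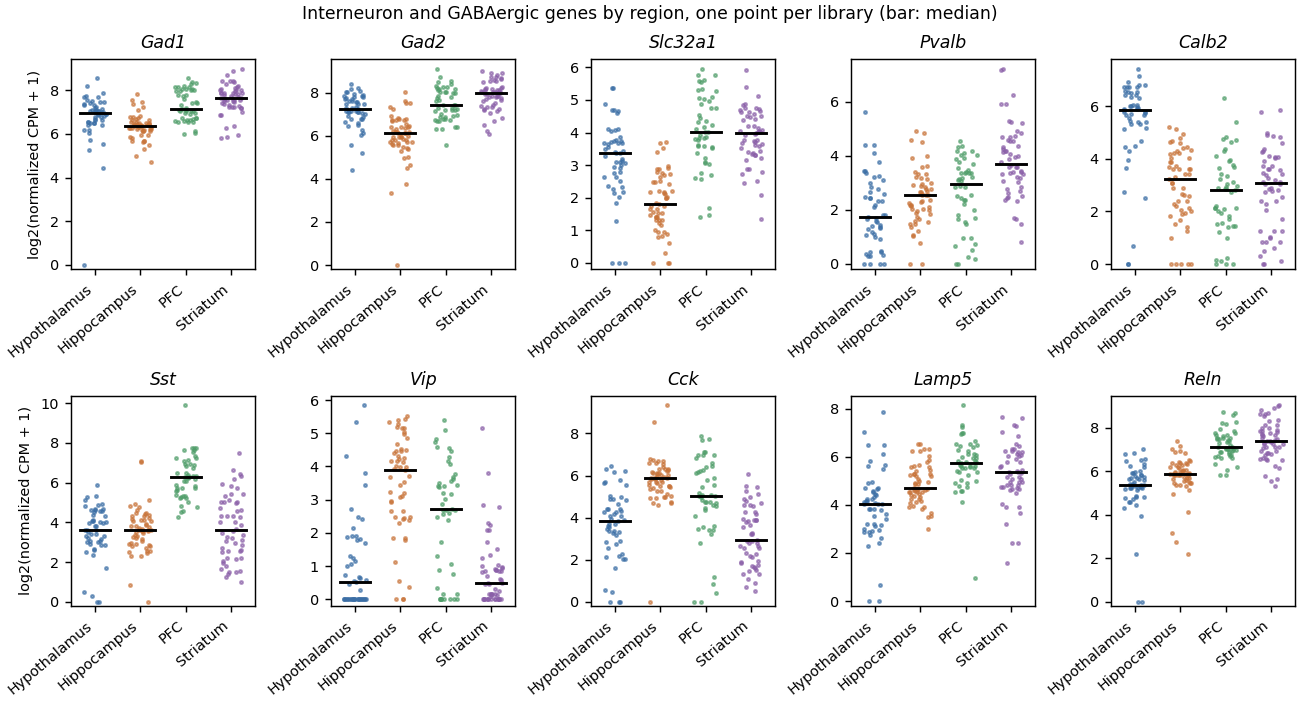
Each point is 1 library and each bar the median of a region, on the vertical axis log2(normalized CPM + 1). Calb2 is highest in the hypothalamus (median 57.3), Sst in the PFC (78.1), Vip and Cck in the hippocampus (13.9 and 57.5) and Pvalb in the striatum (12.1).

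Of the calcium-binding proteins, parvalbumin, which buffers calcium in fast-spiking interneurons, was highest in the striatum. Pvalb (chr15:78191114-78206400, minus strand) had a median of 12.1 normalized CPM there (0.756 to 147), 6.84 in the PFC (0 to 22.3), 4.82 in the hippocampus (0 to 29.2) and 2.33 in the hypothalamus (0 to 47.4). PFC over striatum gave a log2FC of -1.60 ± 0.30 and hippocampus over striatum -1.82 ± 0.29, both called. Hippocampus and PFC did not pass (-0.22 ± 0.29, edgeR adjusted p = 0.893). Thalamic markers were high in the same region. All 5 were higher in the striatum than in the PFC (median log2FC -3.28 for PFC over striatum), the hippocampus (-1.75) and the hypothalamus (-2.67), and their summed level had a median of 4230 normalized CPM in the striatum (488 to 8145), 1917 in the PFC (606 to 5869), 1240.0 in the hippocampus (193 to 4119) and 166 in the hypothalamus (48.5 to 3037). Their part in the striatal values of Pvalb, and in those of Gad1, Gad2 and Reln, was not tested. Calretinin had the opposite place: Calb2 (chr8:110137502-110168210, minus strand) had a median of 57.3 in the hypothalamus (0 to 170.5) against 8.38 in the hippocampus (0 to 36.2), 7.46 in the striatum (0 to 56.5) and 6.13 in the PFC (0 to 79.2). The log2FC of the hypothalamus was 2.49 ± 0.32 over the hippocampus, 2.74 ± 0.34 over the PFC and 2.699 ± 0.34 over the striatum. None of the 3 pairs of other regions passed for Calb2 (edgeR adjusted p = 0.860 to 1.0).

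Among the peptide genes, Sst was highest in the PFC, and Vip and Cck in the hippocampus. Sst (chr16:23889573-23890958, minus strand), which marks dendrite-targeting interneurons, had a median of 78.1 normalized CPM in the PFC (18.4 to 946), where every library was above 18, against 11.4 in the hippocampus (0 to 133), 11.3 in the hypothalamus (0 to 58.7) and 11.2 in the striatum (1.03 to 177). The hippocampus was lower than the PFC by a log2FC of -2.57 ± 0.27, the PFC exceeded the striatum by 2.05 ± 0.28, and hippocampus and striatum did not pass (-0.52 ± 0.26, edgeR adjusted p = 0.134). Against the striatum the hypothalamus was called lower (-0.73 ± 0.27, adjusted p = 0.0125) although the medians were close, and that call was lost with scaling by library size alone and with limma on log2(CPM + 1). In a limma-voom fit with a correlation within replicate labels, fitted at 0.013, the direction turned (0.21, adjusted p = 0.578). The test and the correlation were changed together there. Vip (chr10:5639218-5647617, plus strand), which in cortex marks interneurons that inhibit other interneurons, had a median of 13.9 in the hippocampus (0 to 44.7) and 5.57 in the PFC (0 to 41.5). In the hypothalamus its median was 0.429 (0 to 56.4, 23 of 51 libraries at 0) and in the striatum 0.413 (0 to 34.5, 15 of 54 at 0), where a count of 0 allows up to 3 counts. Vip in the hippocampus exceeded the striatum by a log2FC of 3.55 ± 0.49 and in the PFC by 2.85 ± 0.48, both called, while hippocampus and PFC did not pass (0.70 ± 0.42, adjusted p = 0.263).

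Cck (chr9:121489824-121495694, minus strand), which is made by a class of basket cells and also by many excitatory neurons, followed the order of Vip. Its median was 57.5 normalized CPM in the hippocampus (0 to 643), 31.8 in the PFC (0 to 233), 13.1 in the hypothalamus (0 to 85.8) and 6.53 in the striatum (0.399 to 66.1). Hippocampus over striatum gave a log2FC of 2.57 ± 0.30 and PFC over striatum 2.14 ± 0.30, both called in edgeR, and hippocampus over PFC gave 0.43 ± 0.28 (adjusted p = 0.319). Of the 6 excitatory markers, 5 were higher in the hippocampus (median log2FC 3.73) and 5 in the PFC (3.86) than in the striatum, and 1 was called lower in the PFC than in the striatum. Their summed level had a median of 311 normalized CPM in the hippocampus (130 to 641), 297 in the PFC (0.966 to 970), 187 in the hypothalamus (48.5 to 419) and 47.2 in the striatum (1.43 to 401), and their part in the order of Cck and Vip was not tested.

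Lamp5, a lysosome-associated membrane protein that marks neurogliaform interneurons, and Reln, a secreted glycoprotein of superficial cortical interneurons, were highest in PFC and striatum. Lamp5 (chr2:136052239-136069917, plus strand) had a median of 53.0 normalized CPM in the PFC (0.943 to 279), 39.6 in the striatum (1.96 to 197), 25.1 in the hippocampus (7.04 to 90.8) and 15.5 in the hypothalamus (0 to 231). Reln (chr5:21884454-22344702, minus strand) had a median of 167 in the striatum (39.7 to 523), 137 in the PFC (55.1 to 429.8), 57.5 in the hippocampus (3.63 to 169) and 40.97 in the hypothalamus (0 to 129). Hippocampus was lower than PFC by a log2FC of -0.96 ± 0.20 for Lamp5 and -1.42 ± 0.16 for Reln, and lower than striatum by -0.56 ± 0.20 and -1.71 ± 0.16, all called. PFC and striatum did not pass for Lamp5 (0.39 ± 0.21, edgeR adjusted p = 0.164) or Reln (-0.29 ± 0.16, adjusted p = 0.193), but Reln was called without the libraries that stand apart (-0.50, adjusted p = 0.0108). The 6 medium spiny neuron markers were lower in the hippocampus than in both regions, as given for Gad1 and Gad2, and their part in the Lamp5 and Reln differences was not tested.

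Counted over the 6 pairs of regions, 43 of 60 tests of the 10 genes were called, so differences between regions were common among these genes as they were among all genes. The pairs without the hypothalamus had 6 of 10 called for hippocampus vs PFC (27.3% of 32841 genes tested), 8 of 10 for hippocampus vs striatum (28.4%) and 4 of 10 for PFC vs striatum (31.2%). For the hypothalamus, 8 of 10 were called against the hippocampus, 9 against the PFC and 8 against the striatum, but 62.1%, 63.3% and 63.7% of all genes were called there too. The median log2FC of all genes was 0.47 to 0.55 in favour of the hypothalamus, against -0.03 to 0.0056 for the other pairs. With the libraries that stand apart left out, 46 of 60 tests were called. Besides the values given above, Pvalb in hypothalamus vs PFC was then called (-1.02, edgeR adjusted p = 0.00332, against -0.62 ± 0.30 and 0.0645 with all libraries) and Gad2 in hypothalamus vs PFC was not (0.039, adjusted p = 1.0, against -0.34 ± 0.15 and 0.0413 with all libraries).

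Within regions the conditions were compared to ask what perinatal morphine changed at rest (MOR-SAL vs SAL-SAL) and after LPS (MOR-LPS vs SAL-LPS), what LPS changed in each exposure (SAL-LPS vs SAL-SAL and MOR-LPS vs MOR-SAL), and whether these LPS responses differed. Calls among the 10 genes were made almost entirely in the hypothalamus, where Vip, Cck and Lamp5 were higher and Gad2 was lower after LPS in morphine-exposed mice. None of the hypothalamic calls were made once the 11 libraries that stand apart were left out, as given below. In the hippocampus 1 test was called, for Cck, and in the PFC and striatum none.

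**Figure D2:**
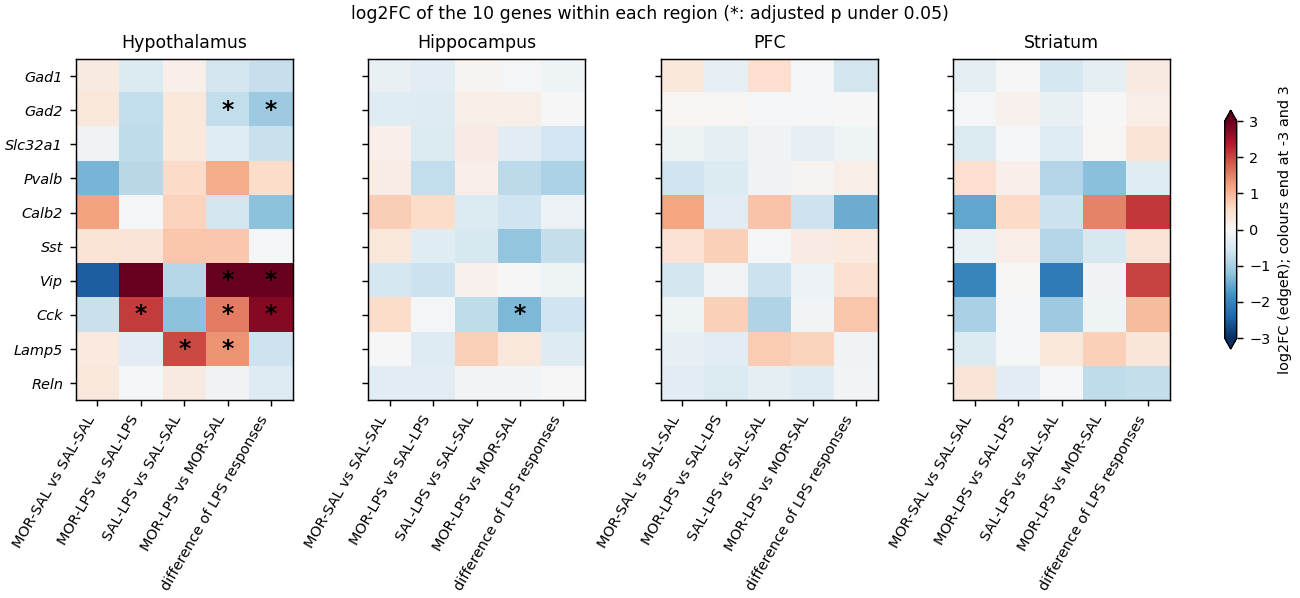
Colour gives the log2FC of each of the 10 genes (vertical axis) in 5 comparisons (horizontal axis) in each region, from edgeR, with colours ending at a log2FC of 3 in either direction. Stars mark adjusted p under 0.05, of which 9 are in the hypothalamus, 1 in the hippocampus and 0 in PFC and striatum.

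In the hypothalamus the largest difference was that of Vip. It ran from 0 to 56.4 normalized CPM in MOR-LPS (median 2.63, 3 of 14 libraries at 0), from 0 to 2.46 in MOR-SAL (median 0, 8 of 14 at 0), from 0 to 4.37 in SAL-LPS (median 0.542, 6 of 12 at 0) and from 0 to 13.0 in SAL-SAL (median 0, 6 of 11 at 0). In the same order the mean counts per library were 56.4, 2.43, 5.25 and 6.91, so outside MOR-LPS these are few reads. All 4 groups overlapped near 0, and the 6 highest MOR-LPS libraries were the 6 that stand apart, with 3.42 to 56.4, while the other 8 ran from 0 to 2.702. The log2FC was 4.85 ± 1.01 for MOR-LPS vs MOR-SAL (edgeR adjusted p = 0.0025), and it stayed called when any 1 of 17 number groups or of the 26 LPS-challenged libraries was left out. The LPS response of morphine-exposed mice exceeded that of saline-exposed mice by 5.70 ± 1.41 (adjusted p = 0.0125), a call that was lost without number group 16 (4.27, adjusted p = 0.0854), while MOR-LPS vs SAL-LPS did not pass (3.23 ± 1.01, adjusted p = 0.0834). Without the libraries that stand apart the values of the called tests were 1.65 (adjusted p = 0.411) and 3.02 (adjusted p = 0.377).

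Cck rose with Vip in the same group. Its range was 4.92 to 85.8 normalized CPM in MOR-LPS (median 33.03), 0.456 to 27.8 in MOR-SAL (median 11.9), 0 to 28.9 in SAL-LPS (median 6.05) and 0 to 50.1 in SAL-SAL (median 20.1). The 6 MOR-LPS libraries that stand apart held 46.1 to 85.8 and the other 8 held 4.92 to 48.6, so the second set lay largely within the range of the other groups. The log2FC was 2.09 ± 0.51 for MOR-LPS vs SAL-LPS (edgeR adjusted p = 0.0414), 1.52 ± 0.47 for MOR-LPS vs MOR-SAL (adjusted p = 0.0386) and 2.76 ± 0.70 for the difference of the LPS responses (adjusted p = 0.0146). Without the libraries that stand apart the 3 values were 1.06, 0.36 and 1.25 (adjusted p = 0.382, 0.775 and 0.461). The share of a library's counts in the single gene Gm26917 also differed between the groups, with a median of 28.8% in SAL-LPS (12.1% to 41.4%), 18.7% in SAL-SAL (7.30% to 36.8%), 13.5% in MOR-LPS (6.91% to 39.96%) and 13.3% in MOR-SAL (7.10% to 24.9%). Its part in the values of Cck, and in those of the other genes compared across these groups, was not tested.

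Lamp5 was higher after LPS in both exposures. It ran from 0 to 231 normalized CPM in SAL-LPS (median 16.6), from 0 to 24.4 in SAL-SAL (median 8.28), from 5.78 to 128 in MOR-LPS (median 23.8) and from 4.38 to 44.2 in MOR-SAL (median 13.0). The highest SAL-LPS values, 231 and 89.0, came from the 2 libraries of that group that stand apart. The log2FC was 1.98 ± 0.47 for SAL-LPS vs SAL-SAL (edgeR adjusted p = 0.0426) and 1.35 ± 0.40 for MOR-LPS vs MOR-SAL (adjusted p = 0.0304), and the difference of these responses was -0.62 ± 0.60 (adjusted p = 0.732). Leaving out SAL-LPS library 1-0 alone gave 1.47 and leaving out MOR-LPS library 16-2 alone gave 0.83, neither of them called. Without the libraries that stand apart the values were 0.95 (adjusted p = 0.428) and 0.42 (adjusted p = 0.609). In SAL-LPS vs SAL-SAL the medium spiny neuron markers had a median log2FC of 1.56 (0 of 6 called in edgeR), with summed levels of 0 to 838 normalized CPM in SAL-LPS and 30.5 to 157 in SAL-SAL, and their part in the Lamp5 value was not tested.

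Gad2 fell in MOR-LPS while the other groups lay close together. The MOR-LPS libraries held 46.0 to 226 normalized CPM (median 104), against 134 to 340.0 in MOR-SAL (median 178), 97.0 to 294 in SAL-LPS (median 187) and 20.4 to 291 in SAL-SAL (median 188). The ranges overlapped, and within MOR-LPS the 6 libraries that stand apart had a median of 81.6 and the other 8 a median of 126. The log2FC was -0.73 ± 0.22 for MOR-LPS vs MOR-SAL (edgeR adjusted p = 0.0313), -1.08 ± 0.33 for the difference of the LPS responses (adjusted p = 0.0440) and -0.74 ± 0.23 for MOR-LPS vs SAL-LPS, which did not pass (adjusted p = 0.0794). Without the libraries that stand apart the first 2 were -0.43 (adjusted p = 0.182) and -0.61 (adjusted p = 0.246). Gad1, the other synthetic enzyme, had a median of 89.3 in MOR-LPS and 141 in MOR-SAL, and its log2FC of -0.55 ± 0.23 did not pass (adjusted p = 0.134).

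**Figure D3:**
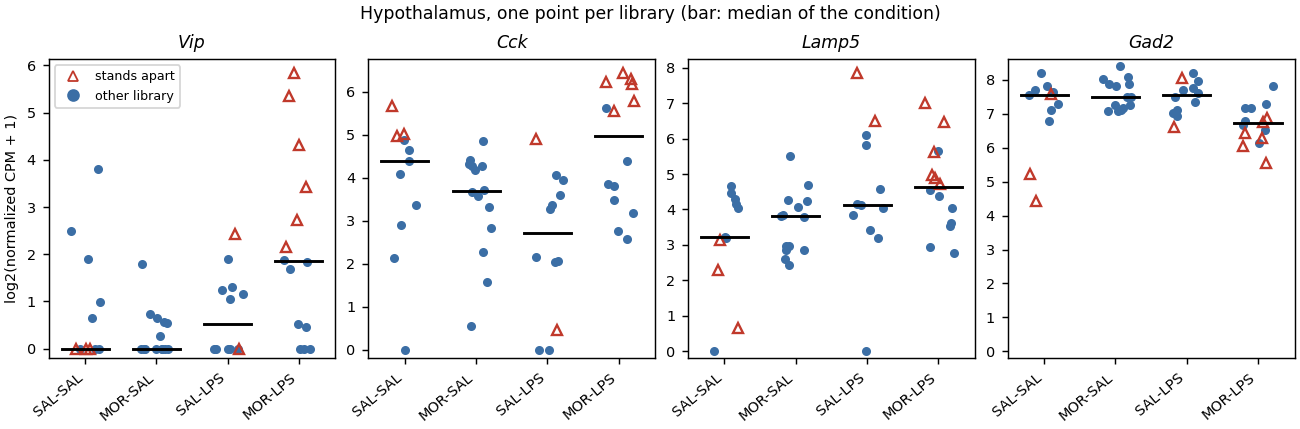
Each point is 1 hypothalamic library, the vertical axis is log2(normalized CPM + 1), bars are medians of a condition and open triangles are libraries that stand apart. In MOR-LPS the 6 triangles hold the highest Vip values (3.42 to 56.4), Cck values from 46.1 to 85.8 and Lamp5 values from 25.3 to 128.

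Counted over the hypothalamic comparisons, MOR-LPS vs MOR-SAL had 4 of 10 genes called (6.27% of 28859 genes tested), with a median log2FC over the 10 of 0.35 against 0.0028 over all genes. The difference of the LPS responses had 3 of 10 (3.8%), MOR-LPS vs SAL-LPS 1 of 10 (1.03%), SAL-LPS vs SAL-SAL 1 of 10 (0.246%) and MOR-SAL vs SAL-SAL 0 of 10 (1.44%), where 3 had an unadjusted p under 0.05 in edgeR, as did 17.3% of all genes. Excitatory markers were called in 1 of these comparisons. Of 6 such genes, Slc17a7 and Neurod6 among them, 5 were higher in MOR-LPS than in MOR-SAL in edgeR, with a median log2FC of 3.21. None of the 6 was called in the other comparisons, where their median log2FC was 1.88 for MOR-LPS vs SAL-LPS, 0.54 for SAL-LPS vs SAL-SAL, 2.15 for the difference of the LPS responses and -0.20 for MOR-SAL vs SAL-SAL. In MOR-LPS vs MOR-SAL 5 of 6 oligodendrocyte, 4 of 5 astrocyte and 2 of 5 microglial markers were also higher, and 1 of 6 medium spiny neuron markers was lower (median log2FC -0.40). Of the 7 hypothalamic neuron markers 0 were called there (median log2FC -0.081). In the difference of the LPS responses 5 of 6 oligodendrocyte (median log2FC 2.71), 2 of 5 astrocyte (2.76), 1 of 5 microglial and 2 of 5 thalamic markers (1.64) were higher and 2 of 6 medium spiny neuron markers (-1.75) and 1 of 7 hypothalamic neuron markers (-0.63) were lower. The summed level of the excitatory markers ran from 98.0 to 419 normalized CPM in MOR-LPS (median 250.2), from 109 to 314 in MOR-SAL (median 232), from 48.5 to 237 in SAL-LPS (median 133) and from 137 to 349 in SAL-SAL (median 187). That of the 5 astrocyte markers ran from 14.2 to 588 in MOR-LPS and from 13.0 to 38.6 in MOR-SAL, and that of the 6 oligodendrocyte markers from 174 to 4552 and from 47.2 to 481; the part of the glial, medium spiny and hypothalamic neuron markers in the calls was not tested. None of the excitatory markers had a median of 0 in these 2 groups. With the mean log2 level of the excitatory markers other than Slc17a6 (which hypothalamic neurons also make) as a covariate, an alternative chosen after the data were seen, 1 of the 9 hypothalamic calls was left (Lamp5 in SAL-LPS vs SAL-SAL, 1.62, edgeR adjusted p = 0.0325). The folds of the lost calls moved unequally. With that covariate the difference of the LPS responses was -0.91 for Gad2 (adjusted p = 0.102), 1.94 for Cck (adjusted p = 0.0774) and 3.51 for Vip (adjusted p = 0.217), and MOR-LPS vs MOR-SAL was 0.15 for Lamp5, 0.43 for Cck, -0.46 for Gad2 and 2.41 for Vip (adjusted p = 0.216 to 0.918), while Cck in MOR-LPS vs SAL-LPS was 1.29 (adjusted p = 0.156). The Lamp5 call was lost with the thalamic markers as the covariate (1.57, adjusted p = 0.0889), of which 1 of 5 was lower in SAL-LPS than SAL-SAL (median log2FC -1.94), and without the libraries that stand apart 0 were left.

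The 3 genes with an unadjusted p under 0.05 at rest, which 17.3% of all genes reached, were Calb2, Vip and Pvalb. Calb2 ran from 35.2 to 143 normalized CPM in MOR-SAL (median 93.7) and from 0 to 64.3 in SAL-SAL (median 45.5), a log2FC of 1.21 ± 0.40 (edgeR adjusted p = 0.0883) and of 0.87 without the libraries that stand apart (adjusted p = 0.179). The MOR-SAL females were the highest, with 94.1 to 143 in 7 libraries, against 0 to 64.3 in 5 SAL-SAL females, 35.2 to 93.2 in 7 MOR-SAL males and 34.4 to 59.8 in 6 SAL-SAL males. In a fit by sex added after the data were seen, the log2FC was 2.12 ± 0.57 in females (adjusted p = 0.0341) and 0.21 ± 0.49 in males (adjusted p = 1.0), and the difference between the sexes, 1.91 ± 0.73, did not pass (adjusted p = 0.258). Of all 28859 genes, 456 were called in females, 0 in males and 0 for the difference, so calls in females alone were not particular to Calb2. Of the 5 SAL-SAL females, 2 stand apart, and without such libraries the log2FC was 1.44 ± 0.40 in females (3 in SAL-SAL, adjusted p = 0.0488), 0.21 ± 0.31 in males (adjusted p = 1.0) and 1.23 ± 0.50 for their difference (adjusted p = 0.336). The genes called were then 405 of 27931 in females, 3 in males and 82 for the difference. The 3 SAL-SAL females come from 2 number groups, and the female at 0 was a low-depth library of 160755 counts. The call in females ended without the low-depth libraries (1.96 ± 0.61, edgeR adjusted p = 0.0667), without these and the libraries that stand apart (1.10 ± 0.40, 2 in SAL-SAL, adjusted p = 0.198) and without number group 10 (1.49 ± 0.61, adjusted p = 0.277). Sex and number group cannot be told apart in most of these libraries. Vip (log2FC -2.47 ± 0.99, adjusted p = 0.160) and Pvalb (-1.40 ± 0.66, adjusted p = 0.248) had lower values in MOR-SAL, where the thalamic markers Tcf7l2, Prkcd, Lef1, Synpo2 and Rora had a median log2FC of -2.11 and 3 of the 5 were called lower. Oligodendrocyte markers had a median log2FC of -1.74 there (1 of 6 called lower) and astrocyte markers -1.06 (0 of 5 called in edgeR). The part of these markers in the values was not tested.

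In the hippocampus 1 of 50 tests was called. Cck ran from 24.7 to 101 normalized CPM in MOR-LPS (median 43.5) and from 0 to 643 in MOR-SAL (median 78.0), with 37.2 to 369.6 in SAL-SAL (median 65.0) and 22.9 to 104 in SAL-LPS (median 50.4). The groups overlapped, and a single MOR-SAL library (7-2) held the value of 643. The log2FC for MOR-LPS vs MOR-SAL was -1.36 ± 0.34 (edgeR adjusted p = 0.0466) and -0.55 without that library (adjusted p = 0.363). The share of all genes called there was 0.467%, and 2 of the 10 genes had an unadjusted p under 0.05 beside 14.3% of all genes, the other being Sst (log2FC -1.19 ± 0.47, adjusted p = 0.194). The difference of the LPS responses for Cck was -0.59 ± 0.48 in the hippocampus (adjusted p = 0.716), beside 2.76 in the hypothalamus, and the difference between regions was not tested.

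The other hippocampal comparisons had 0 of 10 genes called in edgeR. Shares of all genes called were 0.0% for MOR-SAL vs SAL-SAL, 2.73% for MOR-LPS vs SAL-LPS, 2.55% for SAL-LPS vs SAL-SAL and 2.35% for the difference of the LPS responses. The numbers with an unadjusted p under 0.05 were 0, 0, 2 and 0, beside 10.3%, 17%, 17.5% and 12.8% of all genes. The 2 in SAL-LPS vs SAL-SAL were Lamp5 (log2FC 0.72 ± 0.30, edgeR adjusted p = 0.180) and Cck (-0.76 ± 0.34, adjusted p = 0.202). For MOR-LPS vs SAL-LPS the lowest edgeR adjusted p of the 10 genes was 0.394.

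In the PFC no comparison had a gene called among the 10, and none had an unadjusted p under 0.05 in edgeR, which 10.1% to 13.2% of all genes reached. The share of all genes called was 0.0% for MOR-SAL vs SAL-SAL, 0.0046% for MOR-LPS vs SAL-LPS, 0.0% for SAL-LPS vs SAL-SAL, 0.0184% for MOR-LPS vs MOR-SAL and 1.78% for the difference of the LPS responses. Medians in MOR-LPS, SAL-LPS, MOR-SAL and SAL-SAL were 165, 184, 228 and 144 normalized CPM for Gad2, 78.3, 61.8, 83.8 and 60.9 for Sst, 5.00, 5.29, 8.91 and 10.1 for Vip, and 28.9, 32.0, 25.2 and 63.6 for Cck. The spread inside each condition was wider than these steps: Cck ran from 0 to 233 in MOR-SAL and from 0 to 137 in SAL-SAL.

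Some libraries also differed in excitatory content. The 9 PFC libraries with Slc17a7 below 10 had a median Gad2 of 311 normalized CPM against 148 in the other 39, a median Cck of 1.23 against 43.2 and a median Vip of 0 against 8.15. Drd1 had a median of 83.4 in the 9 and 35.1 in the 39. Sst did not move with them (78.5 and 77.8). Every one of the 9 had Gad2 at or above 217, while the 39 ran from 47.1 to 371, so the ranges overlapped. Cck ran from 0 to 11.2 in the 9 and still from 5.83 to 233 in the 39. The 9 were 2 of 10 SAL-SAL, 3 of 12 MOR-SAL, 2 of 10 SAL-LPS and 2 of 16 MOR-LPS libraries, and without them 0 of the 10 genes were called in any PFC comparison.

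**Figure D4:**
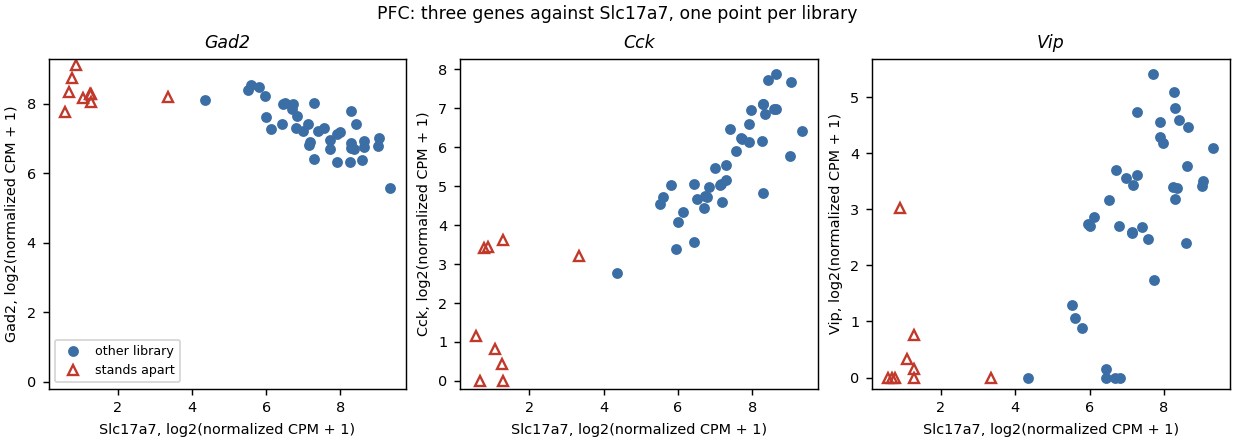
Each point is 1 PFC library, with Slc17a7 on the horizontal axis and Gad2, Cck or Vip on the vertical axis, both as log2(normalized CPM + 1), and open triangles mark the 9 libraries with Slc17a7 below 10. Gad2 has a median of 311 in the triangles and 148 in the others, and Cck 1.23 and 43.2.

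In the striatum 0 of 10 genes were called in any comparison by edgeR. The share of all genes called was 0.0% for MOR-SAL vs SAL-SAL, 0.0% for MOR-LPS vs SAL-LPS, 0.0128% for SAL-LPS vs SAL-SAL, 1.39% for MOR-LPS vs MOR-SAL and 0.00854% for the difference of the LPS responses. The numbers with an unadjusted p under 0.05 were 0, 0, 2, 2 and 1, beside 11.5%, 11.2%, 11.7%, 17.8% and 14.8% of all genes. In SAL-LPS vs SAL-SAL they were Gad1 (log2FC -0.52 ± 0.23, edgeR adjusted p = 0.351) and Vip (-2.13 ± 0.97, adjusted p = 0.369), in MOR-LPS vs MOR-SAL Reln (-0.77 ± 0.34, adjusted p = 0.215) and Pvalb (-1.25 ± 0.57, adjusted p = 0.232), and in the difference Calb2 (2.13 ± 0.99, adjusted p = 0.3002). Medians in MOR-LPS, SAL-LPS, MOR-SAL and SAL-SAL were 253, 224, 254 and 262 normalized CPM for Gad2, 11.7, 10.9, 14.0 and 14.9 for Pvalb, and 12.6, 8.27, 5.89 and 22.6 for Sst. The 6 striatal libraries with Drd1 below 10 had a median Gad2 of 96.7 against 261 in the other 48 and a median Lamp5 of 6.33 against 42.6. Their Gad2 values (67.0 to 131) lay below those of all 48 others (141 to 511), and no gene of the 10 was called without them.

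Other genes of the pathway were followed as 3 lists. The list of GABA uptake and breakdown holds 5 genes, among them the GABA transporter Slc6a11, the GABA transaminase Abat and Aldh5a1, which acts after it. Of its 5 genes 1 was called in 1 of the 20 comparisons within regions, Slc6a11 in striatal MOR-LPS vs MOR-SAL (log2FC 1.98, edgeR adjusted p = 0.0378; 1.39% of all genes called). Slc6a11 is made largely by astrocytes, and 3 of 4 astrocyte markers tested were also higher there (median log2FC 1.83), with summed levels of 21.7 to 355 normalized CPM in MOR-LPS and 15.9 to 40.7 in MOR-SAL. Their part in the Slc6a11 value was not tested. Slc6a11 was not called in the striatum without the libraries that stand apart (1.23, edgeR adjusted p = 0.0995). It was then called in the hypothalamus for MOR-LPS vs MOR-SAL (1.499, adjusted p = 0.0064, with 520 of 27931 genes called), against 1.02 (adjusted p = 0.0900) with all libraries, and for the difference of the LPS responses (1.97, adjusted p = 0.0244, with 502 genes called), as was the GABA transporter Slc6a13 (5.28, adjusted p = 0.0453). With all libraries, 4 of 5 astrocyte markers were higher in hypothalamic MOR-LPS than MOR-SAL (median log2FC 2.50). Between regions Abat followed the synthetic enzymes, lower in the hippocampus than in the PFC by a log2FC of -1.60 and than in the striatum by -1.76, both called. The list's median was -0.27 for hippocampus vs PFC and -0.24 for hippocampus vs striatum, against 0.0056 and -0.0093 for all genes.

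Of 15 transcription factors of interneuron development, 2 tests were called within regions, each in a single gene. Satb1 was higher in hypothalamic MOR-LPS than MOR-SAL (log2FC 0.80, edgeR adjusted p = 0.0383, beside 6.27% of all genes called), which was lost without the libraries that stand apart (0.24, adjusted p = 0.682), and Nkx2-1 was lower in hippocampal MOR-LPS than SAL-LPS (-3.81, adjusted p = 0.0334, beside 2.73% of all genes). There 1 of 6 oligodendrocyte (median log2FC 1.39) and 1 of 4 microglial markers tested (1.74) were called higher and 0 lower. Their part in the Nkx2-1 value was not tested. Between hippocampus and PFC, where 27.3% of all genes were called, 3 factors were higher and 7 lower in the hippocampus, with Prox1, which is also made by dentate granule cells, 3.37 higher and Sp9 lower (-1.94), and a list median of -0.79 against 0.0056 for all genes. Dlx1 and Dlx6 were at 0 in every library of the 3 regions other than the hypothalamus and had no test within those regions. Genes at 0 only outside the hypothalamus were described above with the way of counting. For Dlx1 and Dlx6, absence of the RNA and the way of counting cannot be told apart. Of 20 other interneuron markers, only Adarb2 was called within a region, lower in hypothalamic SAL-LPS than SAL-SAL (log2FC -1.16, adjusted p = 0.0407) with a difference of the LPS responses of 1.36 (adjusted p = 0.0195), beside 0.246% and 3.8% of all genes called. Both Adarb2 calls were lost without the libraries that stand apart (-0.21, adjusted p = 0.891, and -0.00039, adjusted p = 1). Of the same 20, 2 were higher and 9 lower in hippocampus than PFC (median -0.48), among them the peptide gene Npy (-2.45), which many Sst interneurons also make.

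The genes that varied most like each member were found from Pearson's r of log2(normalized CPM + 1) over 200 libraries, averaged over the 4 regions after removing condition and sex, among 12976 genes. The 8 libraries left out had a total count under 0.5 of the median of their own region. Libraries share depth and dissection, so r describes these libraries. Gad1 and Gad2 were most like each other (mean 0.82, from 0.69 in PFC libraries to 0.92 in striatal ones), and Klhl13 was next for both (0.65 and 0.75) and first for Slc32a1 (0.63). Pvalb varied with Cplx1 (0.64) and Nefh (0.57), Calb2 with AW551984 (0.58) and Tmem130 (0.55), Sst with Rpl41 (0.74) and the peptide gene Npy (0.73), and Vip with Nov (0.63) and Mef2c (0.62). Cck varied with Olfm1 (0.74) and Nrn1 (0.67), Lamp5 with Akap5 (0.69) and Gucy1a3 (0.68), and Reln with Alcam (0.69) and Meis2 (0.68). Among the 10 genes themselves, Vip and Cck had a mean r of 0.41 and 0.77 in the PFC, while Gad2 and Cck had a mean of -0.35 and -0.64 in the PFC.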

How the data were processed

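Nuclear RNA of NeuN+ nuclei was sequenced from 208 libraries made by a modified Smart-seq3 protocol. Reads were trimmed with Trim Galore 0.6.7 and aligned to mm10 with STAR 2.7.10a, and the authors deposited raw counts per gene for each region, counted by STAR on GENCODE gene models. HTSeq 0.12.4 and DESeq2 1.40.2 are also named in the submitters' processing notes. The authors also deposited CPM, counts scaled to the library total, and 0 values differed from those recomputed from the counts. Replicates were not pooled, and no columns of a region were identical.

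Each region was fitted in edgeR 4.0.16 (R 4.3.3, limma 3.58.1) with TMM, genes with a total count above 10, the 4 conditions and sex as terms and quasi-likelihood tests, with Benjamini-Hochberg adjustment over all genes. Regions were compared in 1 joint fit of 16 groups and sex. Errors after ± are standard errors of log2FC. Replicate labels do not say how animals shared litters. The total count (7673 to 92945090 per library) limits precision, and a count of 0 allows up to 3 counts, for counting error only. The alternatives were DESeq2 1.42.0, other scalings and filters, limma on log2(CPM + 1), removal of low-depth libraries (under 0.5 of the region's median), blocks for the first number of the replicate label or for the label itself, and omission of 1 such number or 1 library in the hypothalamus (26 LPS-challenged libraries) and the hippocampus (28 MOR-LPS and MOR-SAL libraries, 10 numbers). The fits with 1 number or 1 library omitted kept the trended dispersion of the fit with all libraries. That estimate of the spread therefore still drew on the libraries left out. Named genes were the 10 members, at most 3 genes with the smallest p of each list, marker genes used in a check, and for each member the 2 genes most like it. Members and lists were chosen with earlier results of these data known.

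The fit within regions was tested on simulated counts of 2 hippocampal comparisons, and the other regions and the joint fit were not simulated. In that simulation unchanged genes were called too, also in the comparison where no gene was changed. Most calls of unchanged genes were at a mean count under 10, where an unadjusted p under 0.05 was also more common than at higher counts. Positions are from GENCODE M21 on mm10. RefSeq promoters (GRCm38.p6) were matched by symbol for 9 of the 10 genes, not Calb2. Values of some single genes are not reported here.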

Additional observations from a re-analysis of the deposited data

Results flagged for a closer look

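Among groups of 4 to 10 libraries, 8 of 30 gene and group pairs had a library far from the others in the same group, by a limit that flags about 1 in 20 groups by chance where values are normally distributed. These levels were not log-transformed, and the rate for such values was not measured. In the PFC these were SAL-LPS library 1-0 for Gad2 (426 normalized CPM, next 258) and for Lamp5 (279, next 121), SAL-LPS library 11-0 for Sst (201, next 116), SAL-LPS library 9-3 for Vip (25.5, next 11.3) and SAL-SAL library 4-3 for Calb2 (24.0, next 12.6). PFC library 1-0 is one of the 9 with Slc17a7 below 10. In the striatum they were MOR-SAL library 17-2 for Sst (177, next 23.5) and for Cck (43.3, next 14.4), and MOR-SAL library 15-0 for Vip (3.29, next 0.958).

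In the hypothalamus the LPS response differed between morphine-exposed and saline-exposed mice by a log2FC of 5.70 for Vip, 2.76 for Cck and -1.08 for Gad2, each by the test of the difference itself in edgeR. Without the 11 libraries that stand apart the same differences were 3.02, 1.25 and -0.61, none of them called, and their part in the results was not tested further.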

How the results depend on the processing

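Of the 50 hypothalamic tests of the 10 genes, 9 were called. The number was 2 with edgeR's filterByExpr, 4 of 40 when only the groups compared entered the fit, 1 with limma on log2(CPM + 1), and, in alternatives chosen after the data were seen, 1 with the excitatory markers as a covariate, 6 with the thalamic markers (the Gad2 difference of the LPS responses was then -1.07, adjusted p = 0.0569, and that of Cck 2.05, adjusted p = 0.0738) and 0 without the libraries that stand apart. It was 3 to 9 when 1 number group was left out (3 without number 14) and 4 to 11 when 1 of the 26 LPS-challenged libraries was left out, the libraries of the saline challenge not being left out singly (4 without MOR-LPS library 14-4). With DESeq2 size factors in edgeR the hypothalamic Gad2 calls were lost (adjusted p = 0.0506 for MOR-LPS vs MOR-SAL, 0.0787 for the difference). Scaling by library size alone ended the Gad2 difference (0.107), Lamp5 in SAL-LPS vs SAL-SAL (0.0537) and Cck in MOR-LPS vs MOR-SAL (0.0548). Without the sex term the Gad2 difference (0.0640) and Lamp5 in SAL-LPS vs SAL-SAL (0.0634) were lost. The 1 hippocampal call was lost (0) with scaling by library size alone, filterByExpr, only the groups compared or limma, and the count was 0 to 1 over the 10 number groups and 28 libraries left out. PFC and striatum stayed at 0 under every alternative run there. The cause of these changes was not tested.

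With the number group as a replicate block (for exposure, limma with a correlation within numbers), 4 hypothalamic tests and 0 hippocampal tests were called. Those no longer called were Lamp5 in SAL-LPS vs SAL-SAL (1.80, adjusted p = 0.139) and MOR-LPS vs MOR-SAL (0.99, 0.174), Cck in MOR-LPS vs MOR-SAL (1.47, 0.0556), the differences of the LPS responses of Cck (2.49, 0.0625) and Vip (6.01, 0.0966), and hippocampal Cck (-0.68, 0.779). The labels do not say what the number marks. Libraries of the 2 challenges with the same number deviated together, with a correlation above 0.1, in 0 of 15 numbers in the hypothalamus, 1 of 15 in the hippocampus, 1 of 11 in the PFC and 6 of 12 in the striatum, so the numbers are not shown to pair the samples.

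Between regions 43 of 60 tests were called, and the count stayed within 1.5 times that under all 9 alternatives. Gad2 in hypothalamus vs PFC changed sign, to 0.021 with limma on log2(CPM + 1) and 0.039 without the libraries that stand apart. Sst in hypothalamus vs striatum changed from -0.73 to 0.21 in the limma-voom fit with a correlation within replicate labels. Omitting 1 number group gave 1.84 to 2.27 for Cck in MOR-LPS vs SAL-LPS (7 of 17 kept the call), 1.23 to 1.82 in MOR-LPS vs MOR-SAL (12 of 17), 2.24 to 3.12 for its difference of the LPS responses (16 of 17) and -1.28 to -0.93 for the Gad2 difference of the LPS responses (6 of 17). With DESeq2 the differences of the LPS responses were not called for Vip (5.75, adjusted p = 0.0555) or Gad2 (-0.97, adjusted p = 0.106). Without the low-depth libraries 7 of the 50 hypothalamic tests were called, and the calls ended for the Vip difference of the LPS responses (4.65, adjusted p = 0.0541) and for Cck in MOR-LPS vs SAL-LPS (2.07, adjusted p = 0.0521). Hypothalamic Vip averaged 18.9 counts per library, which limits its precision.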
